A study of Mus musculus with 6 samples.

Results

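The genes of the cytosolic ribosomal proteins were compared between osteoblasts, the cells that lay down bone, and chondrocytes, the cells of cartilage, in newborn C57BL/6 mice. Members were chosen by gene symbol: Rpl or Rps followed by digits, with at most 1 letter a, x, y or l and 1 further digit, and also Rpsa, Rplp0, Rplp1 and Rplp2. Of the 23364 symbols in the deposited table, 84 matched. One of these, Rps4y2, is listed by RefSeq as a transcribed pseudogene under the name Rps4l and was left out, which left 83 members, 32 of the small and 51 of the large ribosomal subunit. The symbol pattern does not reach Rpl36al, nor Fau, which encodes a ribosomal protein fused to a ubiquitin-like protein. These genes are described beside the members. Symbols marked as pseudogenes (-ps) were also left out.

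Osteoblasts were represented by 3 libraries from calvaria, the skull roof, at postnatal day 1, sorted for green fluorescent protein (GFP), with the genotype given as Sp7 positive and the reporter as Sp7-GFP. Chondrocytes were represented by 3 libraries from the rib cartilage of wild-type mice, equal in age and strain, and no sort is named for them. Sp7, also called Osterix, is a transcription factor of the osteoblast lineage, so the sort selects cells by a marker of that lineage. Cell type, body site, sorting, genotype and digestion enzyme all go with the group and cannot be told apart. Whether a library holds 1 animal or several is not given in the labels, so p-values measure the spread between these libraries only.

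A ribosome is built from ribosomal RNA and a copy of each ribosomal protein, with the small subunit reading the messenger RNA and the large subunit joining amino acids. Most of the proteins are needed for every ribosome, and their genes are among the most highly transcribed in growing cells. Cells that secrete large amounts of collagen, such as osteoblasts and chondrocytes, depend on high rates of translation. A few members have paralogs, gene copies that encode a near relative of the same protein. Inherited loss of 1 copy of certain members causes Diamond-Blackfan anaemia, in which skeletal malformations are common.

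The values are RPKM, read numbers divided by transcript length and by the mapped reads of the library, summed over the transcripts of a symbol. They are scaled to transcript length, so levels can be compared between genes. RPKM measures a gene's share of the RNA sequenced, and in such bulk samples fewer cells of a type and less RNA per cell cannot be told apart. Log2 differences are taken on log2(RPKM + 1) as osteoblast minus chondrocyte, so a positive value means higher in osteoblasts, and are given with a standard error (SE). A gene was called when its Benjamini-Hochberg adjusted p from limma over the 11218 genes tested was under 0.05. The estimated depth was such that 1 RPKM in a 2 kb transcript stood for 54.0 to 71.8 reads. All 8 osteoblast markers were called higher and all 8 chondrocyte markers lower in the osteoblast libraries. Genes were tested if they reached 1 RPKM in 3 or more of the 6 libraries. Bglap, Dmp1 and Phex passed this filter through osteoblasts alone, and Matn1 and Matn3 through chondrocytes alone, which builds in their direction. Sp7, the gene of the sorting reporter, was itself among the osteoblast markers. The summed RPKM of the chondrocyte markers ran from 73.0 to 89.2 in osteoblasts and from 30751 to 54104 in chondrocytes. The osteoblast markers summed to 20531 to 22301 in osteoblasts and to 2277 to 7779 in chondrocytes, where Col1a1 made up most of the sum.

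Most members were more abundant in the osteoblast libraries, and they were among the most abundant transcripts of both cell types. Of the 83 members, 38 had a mean RPKM of at least 500 over the 6 libraries and 72 of at least 100. A further 9 members lay between 1 and 100, and Rpl3l and Rpl10l lay under 1 and were not tested. The summed RPKM of all members was 48793, 44061 and 46558 in osteoblast replicates 1 to 3 and 33523, 27805 and 31688 in chondrocyte replicates 1 to 3. The osteoblast libraries were all above the chondrocyte libraries, with means of 46471 ± 2367 (SD, n = 3) and 31005 ± 2919 (SD, n = 3). The ratio of these means was 1.499, and the exact permutation test of the mean log2 sums, a difference of 0.59, gave p = 0.1, two-sided, the smallest value that 3 against 3 libraries allow. As a share of all RPKM in a library, the members took 15.2%, 13.9% and 15.7% in osteoblasts and 11.9%, 10.3% and 11.2% in chondrocytes. Without the 5 most abundant members the log2 difference of the sums was 0.56.

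**Figure D1:**
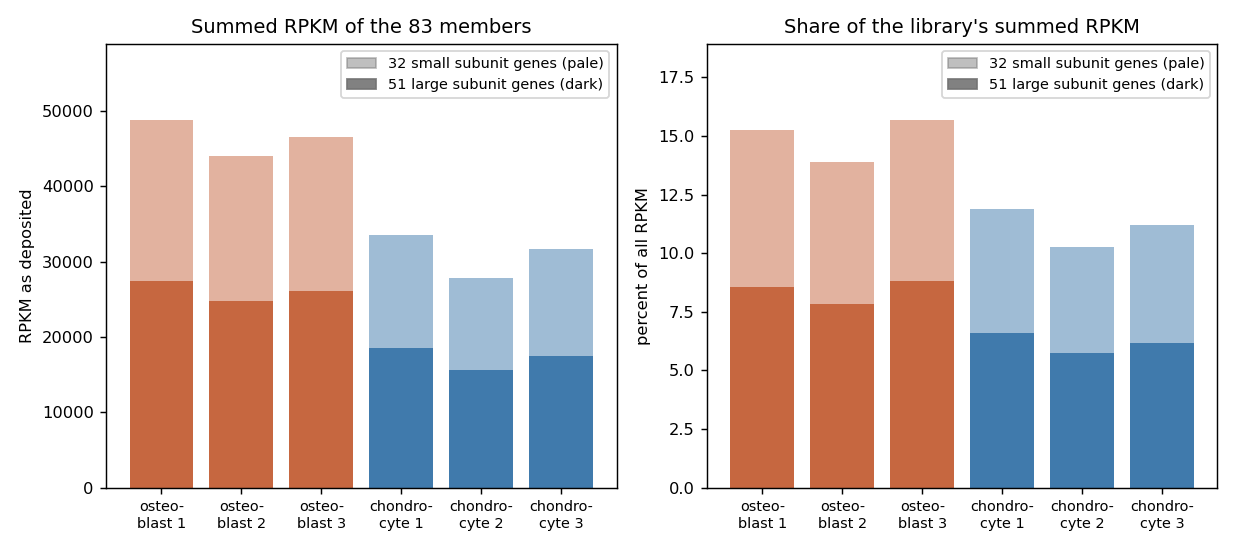
Summed RPKM of the ribosomal protein genes (left, RPKM as deposited) and the same sum as a percentage of all RPKM in the library (right), 1 bar per library, with large subunit genes dark and small subunit genes pale. The 3 osteoblast bars, from 44061 to 48793 RPKM, are all taller than the 3 chondrocyte bars, from 27805 to 33523.

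Counted gene by gene, 70 of the 81 tested members (86.4%) were called higher in osteoblasts, against 55.5% of all tested genes. None of the members was called lower, against 13.5% of all tested genes, and the remaining 11 were not called. All 81 log2 differences were positive, so in limma none was lower at an unadjusted p under 0.05 either. The median log2 difference was 0.57 over the members and 0.43 over all tested genes, so the whole table leaned towards osteoblasts and the members lay somewhat above its middle. Among the 291 other genes with a mean RPKM of at least 100, 158 (54.3%) were called higher and 62 lower, with a median of 0.54. In 77 members every osteoblast library was above every chondrocyte library, a pattern that 60.4% of all tested genes showed. The members spread little: apart from Rpl39l and Rps27l, the 79 tested members ran from 0.05 to 1.02 with an SD of 0.20 between genes. Of the small subunit members 27 of 32 were called higher, and of the tested large subunit members 43 of 49. The small subunit sum divided by the large subunit sum was 0.779, 0.774 and 0.780 in osteoblasts and 0.806, 0.785 and 0.809 in chondrocytes, lower in every osteoblast library (exact permutation p = 0.1).

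The size of the shared difference depended on how the libraries were scaled. Dividing each library by its median-of-ratios factor, which centres the typical gene, left 11 members (13.6%) higher and 2 lower, against 30.4% of all tested genes higher and 30.9% lower, and a member median of 0.06. With each library scaled to the same RPKM sum, 58 members (71.6%) were called higher and none lower, with a median of 0.41, where 48.1% of all tested genes were higher and 17.9% lower. Upper-quartile scaling called 17 (21%) higher and 1 lower, against 33% and 28.4% of all tested genes. Quantile normalization called 37 (45.7%) higher and 1 lower, against 32.1% and 30.8%. A scaling added after the data were seen, to the RPKM sum without the 9 genes that exceeded 1% of any library, called 29 (35.8%) higher and 1 lower, against 38% and 24.8%. The members' share called higher was thus above that of all tested genes with the deposited, equal-sum and quantile scalings and below it with the other 3. These 9 genes were collagens, Sparc and Eef1a1. Col2a1, the main cartilage collagen, stood at 37318, 48028 and 26727 RPKM in chondrocytes and took up to 17.7% of a library's RPKM. Its part in the members' difference was not tested.

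Under all 6 scalings, the deposited one included, 11 members were called higher: Rpl39l, Rps27l, Rps19, Rpl8, Rpl41, Rps2, Rpl36, Rpl34, Rpl30, Rplp1 and Rpsa. The share of all tested genes called higher under all 6 was not counted. The number is therefore no result about the members as a set. With median-of-ratios scaling alone, these 11 were 13.6% of the tested members, against 30.4% of all tested genes. Rpl22 was called lower under 4 scalings and Rps21 under 1, and 10 tested members were called higher under none. The direction that the remaining members share is therefore stated only for the deposited scaling.

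**Figure D2:**
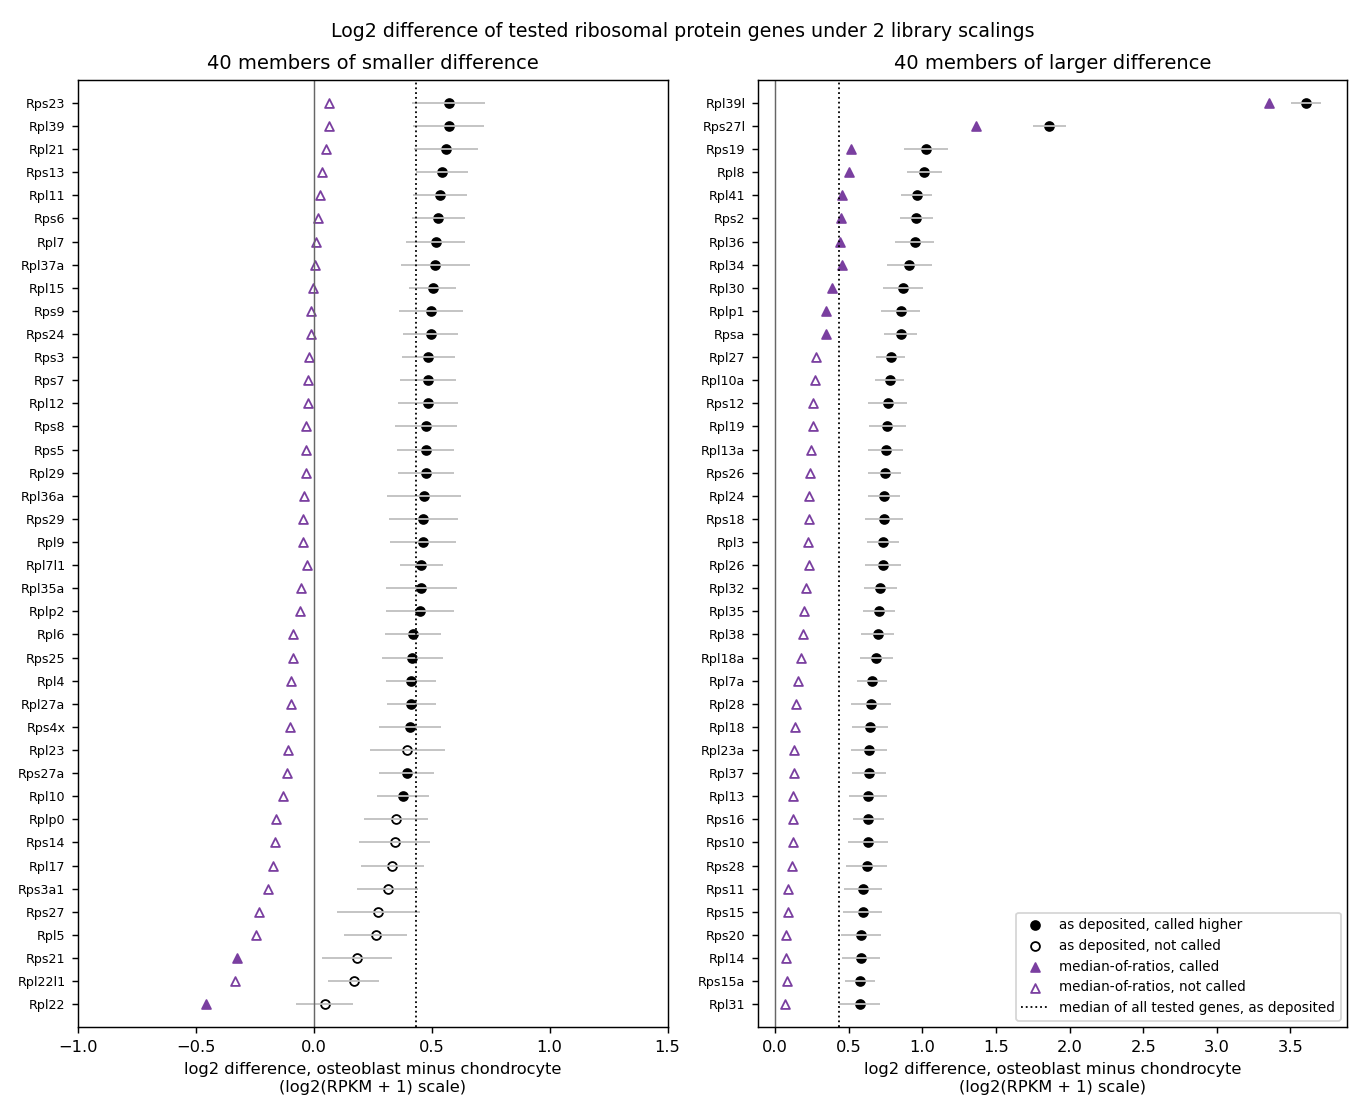
Log2 difference, with osteoblasts higher to the right (from log2(RPKM + 1)), of the tested members (1 of the 81 is not drawn), as deposited (circles, bars 1 SE) and after median-of-ratios scaling (triangles), filled where the adjusted p was under 0.05. All circles lie above 0, and most triangles gather around 0 with Rpl39l, Rps27l and 9 others still called higher and Rpl22 and Rps21 called lower.

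Members tended to rise and fall together from library to library, and the same counts were not made over all tested genes. Osteoblast replicate 1 had the highest level of its group for 56 of the 81 tested members, and osteoblast replicate 2 the lowest for 67. In chondrocytes replicate 1 was highest for 71 members and replicate 2 lowest for 75. The median-of-ratios factor, which follows the typical gene, was also lowest in chondrocyte replicate 2 and highest in osteoblast replicate 1 of their groups. Unlike the members, it was highest in chondrocyte replicate 3 and lowest in osteoblast replicate 3. The part of such shifts of the whole library in the members' counts was not tested. The median coefficient of variation of a member within a group was 6.22% in osteoblasts and 9.86% in chondrocytes, against 7.82% and 16.2% for all tested genes. After each library was divided by its summed member RPKM, the member medians were 3.76% and 4.90%, and the lowest library of a group was spread over all replicates. The divisor is built from the same members, so this division takes out what they share by construction. The lower medians are therefore no test of a shared movement. Across members the log2 difference had a Spearman rho of -0.17 with transcript length (n = 81 genes of the same 6 libraries, which are not independent replicates).

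Division by the member total asks which members depart from the rest, whatever the scaling of the libraries. In this fit 9 members were called higher and 3 lower, where 24.9% of all tested genes were higher and 32.3% lower. Higher were Rpl39l, Rps27l, Rps19, Rpl8, Rpl34, Rpl41, Rps2, Rpl36 and Rpl30, and lower were Rpl22, Rps21 and Rpl5. Without osteoblast replicate 1 the counts were 2 higher and 1 lower, without osteoblast replicate 2 they were 5 higher and 2 lower, and without osteoblast replicate 3 they were 6 higher and 1 lower. Without chondrocyte replicate 3, 7 were higher and 2 lower. Rpl39l, Rps27l and Rpl22 were called the same way in each of the 16 versions of this fit that were run.

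**Figure D3:**
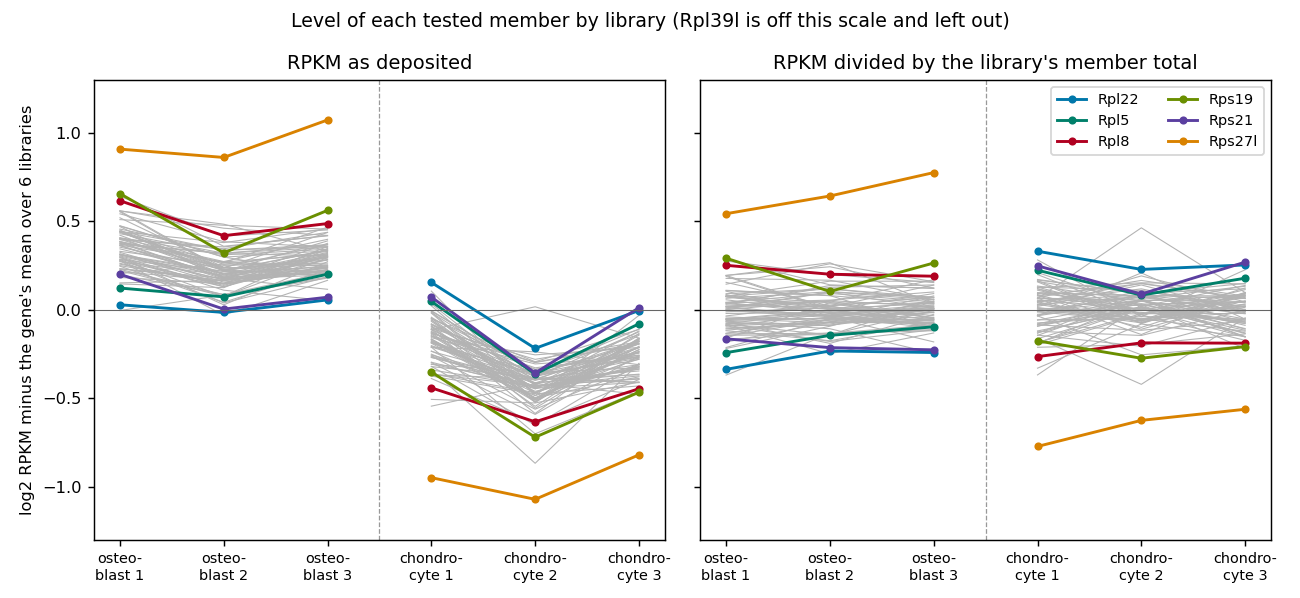
Log2 RPKM of each tested member except Rpl39l, minus its own mean over the 6 libraries, as deposited (left) and after division by the library's member total (right), with lines joining the libraries of a cell type. On the left the grey lines dip together at osteoblast replicate 2 and chondrocyte replicate 2, and on the right they flatten, as the division makes them. Rps27l is high in osteoblasts in both panels, whereas Rpl22, Rps21 and Rpl5 are lower in osteoblasts on the right only.

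Rpl39l had the largest difference of any member. It encodes a paralog of Rpl39, a short protein that lines the exit tunnel of the large subunit, and is known for its high level in testis. The paralog differs from Rpl39 at 23 of 156 bases of coding sequence, an identity of 85.3%. The coding sequences are shown because the level of Rpl39l rests on the reads that tell it from Rpl39. Both are from GENCODE M21 on GRCm38, 5′ to 3′ with the stop codon, and capitals mark the bases that differ between the aligned pair. Rpl39 lies at chrX:37082701-37085127 on the minus strand, with introns, and Rpl39l at chr16:10174310-10174465 on the plus strand in 1 uninterrupted exon stretch.
Rpl39: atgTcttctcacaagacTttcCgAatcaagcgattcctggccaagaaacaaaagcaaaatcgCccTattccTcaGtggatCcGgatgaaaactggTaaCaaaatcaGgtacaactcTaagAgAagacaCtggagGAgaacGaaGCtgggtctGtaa
Rpl39l: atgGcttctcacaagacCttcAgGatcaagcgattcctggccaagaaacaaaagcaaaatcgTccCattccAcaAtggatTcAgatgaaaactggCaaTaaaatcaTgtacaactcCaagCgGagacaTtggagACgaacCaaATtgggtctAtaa

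The level of Rpl39l was 11.5, 11.4 and 12.9 RPKM in osteoblast replicates 1 to 3 and 0.0370, 0.111 and 0.0347 RPKM in chondrocyte replicates 1 to 3. Every osteoblast library stood far above every chondrocyte library. These levels correspond to an estimated 321, 308 and 280 reads in osteoblasts against 1, 3 and 1 reads in chondrocytes. With depth taken into account the ratio was 197, with an exact 95% interval of 83.9 to 607 that covers counting error only. The log2 difference was 3.60 (SE 0.10, adjusted p = 6.27e-07 by limma with Benjamini-Hochberg adjustment), a value that the added 1 RPKM holds down. Rpl39l passed the filter on low values through its osteoblast libraries alone, which builds in the direction of its difference.

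Its parent Rpl39 was much more abundant, at 626, 566 and 653 RPKM in osteoblasts and 471, 342 and 436 RPKM in chondrocytes. Its log2 difference of 0.57 was close to the member median. Rpl39l thus made up 1.80%, 1.97% and 1.93% of the summed RPKM of the pair in osteoblasts and at most 0.0323% in a chondrocyte library. This share does not depend on library scaling. The longest run of bases that the transcripts of the pair share is 38. The sources used here do not say how reads that fit both genes were placed. The 6 testis markers Ddx4, Dazl, Tnp1, Prm1, Prm2 and Ldhc summed to 0.182 to 0.323 RPKM in osteoblasts and 0.0396 to 0.0853 RPKM in chondrocytes. None of them reached the level for testing, and 3 of them were at the table's floor in all libraries.

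Rps27l had the next largest difference. It encodes a paralog of Rps27, a zinc-binding protein of the small subunit, and its gene is a known target of the stress-response factor Trp53. The coding sequences differ at 61 of 255 bases, and the longest run that the transcripts share is 11 bases, so most reads can be told apart. They are shown in the same way, with Rps27 at chr3:90212725-90213615 on the minus strand and Rps27l at chr9:66946175-66949357 on the plus strand of GRCm38 (GENCODE M21, spans with introns).
Rps27: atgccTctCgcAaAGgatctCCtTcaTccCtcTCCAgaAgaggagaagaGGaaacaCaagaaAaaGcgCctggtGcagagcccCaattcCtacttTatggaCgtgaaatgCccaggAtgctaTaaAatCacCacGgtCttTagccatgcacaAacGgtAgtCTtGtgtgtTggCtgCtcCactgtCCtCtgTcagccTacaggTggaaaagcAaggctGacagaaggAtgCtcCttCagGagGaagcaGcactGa
Rps27l: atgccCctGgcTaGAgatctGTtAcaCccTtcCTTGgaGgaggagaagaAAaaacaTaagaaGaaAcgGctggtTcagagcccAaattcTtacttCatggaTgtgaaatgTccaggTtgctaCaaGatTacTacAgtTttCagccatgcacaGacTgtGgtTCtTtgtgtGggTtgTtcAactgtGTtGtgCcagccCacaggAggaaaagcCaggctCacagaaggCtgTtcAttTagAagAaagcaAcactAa

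The level of Rps27l was 116, 112 and 130 RPKM in osteoblasts and 32.02, 29.4 and 35.0 RPKM in chondrocytes, a 3.71-fold ratio of means. The groups lay far apart, and the log2 difference was 1.86 (SE 0.11, adjusted p = 1.29e-05, limma). Its parent Rps27, at 332, 268 and 307 RPKM against 295, 196 and 268 RPKM, had overlapping groups and was not called (log2 difference 0.27, SE 0.18, adjusted p = 0.197). The share of Rps27l in the pair was 25.9%, 29.5% and 29.7% in osteoblasts and 9.81%, 13.1% and 11.6% in chondrocytes. That difference of 16.9 percentage points had an exact permutation p of 0.1, the smallest possible, and 0.14 after Benjamini-Hochberg adjustment over the 7 pairs tested. Cdkn1a, another known Trp53 target, stood at 265, 234 and 254 RPKM in osteoblasts and 66.3, 28.8 and 41.9 RPKM in chondrocytes, and Trp53 itself had a log2 difference of 0.97 (adjusted p = 0.000978, limma). Mdm2, also a known Trp53 target, had a smaller log2 difference of 0.56 (adjusted p = 0.00231, limma). After median-of-ratios scaling the differences were 2.01 for Cdkn1a, 0.48 for Trp53 and 0.07 for Mdm2, which was no longer called (adjusted p = 0.660, limma). Their part in the difference of Rps27l was not tested.

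Rpl22 lay furthest below the other members. It encodes a large subunit protein without which mice are viable, and its paralog Rpl22l1 can take its place. Rpl22 stood at 81.3, 78.9 and 82.9 RPKM in osteoblasts and 88.7, 68.5 and 79.5 RPKM in chondrocytes, with overlapping groups and a log2 difference of 0.05 (SE 0.12, adjusted p = 0.756). Relative to the member total it was lower in osteoblasts by a log2 difference of -0.53 (SE 0.11, adjusted p = 0.00485, limma). Rpl22l1 stood at 95.1, 101 and 108 RPKM against 88.1, 96.5 and 85.3 RPKM, again with overlapping groups. Relative to the member total its difference was -0.41 (SE 0.15, adjusted p = 0.0507). The paralog made up 55.5% ± 1.43 of the pair in osteoblasts and 53.4% ± 4.53 in chondrocytes (SD, n = 3 each, exact permutation p = 0.5), with overlapping groups.

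**Figure D4:**
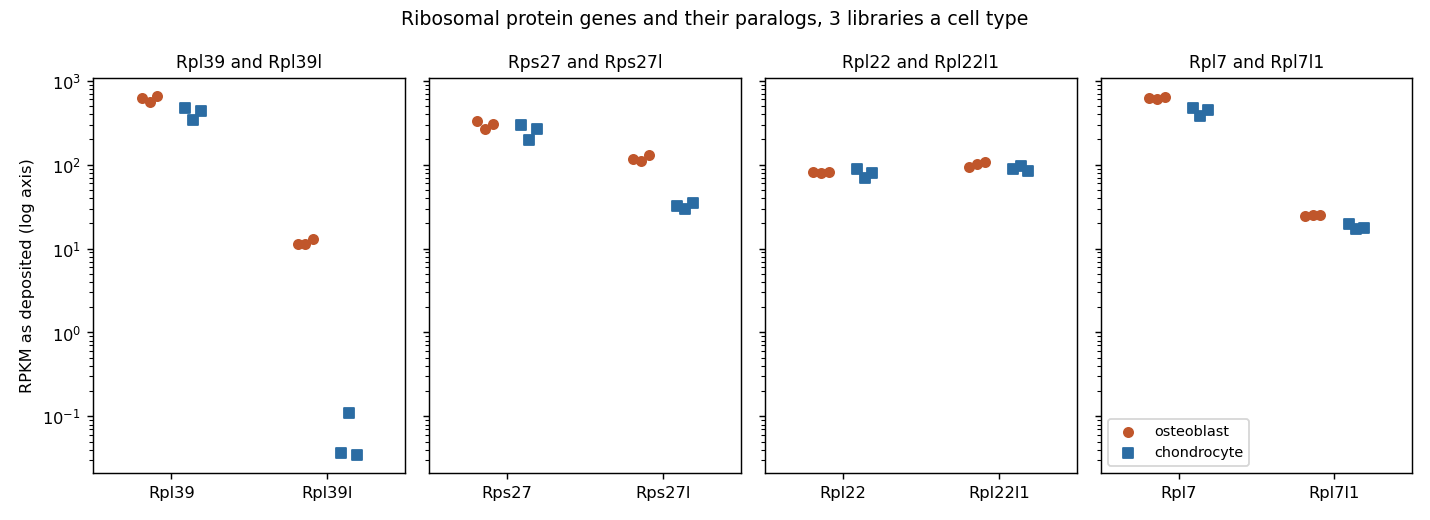
RPKM as deposited (log axis) of 4 ribosomal protein genes and their paralogs, 1 point per library, osteoblasts as circles and chondrocytes as squares. Rpl39l separates the cell types by more than its parent Rpl39, Rps27l separates them while Rps27 overlaps, and Rpl22 and Rpl22l1 overlap in both.

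Other paralogs gave smaller differences. Rpl7l1, the paralog of Rpl7, was 3.85% of its pair in osteoblasts and 3.96% in chondrocytes (exact permutation p = 0.5). It stood at 24.5, 25.4 and 25.3 RPKM against 19.4, 16.9 and 17.8 RPKM, a log2 difference of 0.46 beside 0.52 for Rpl7. Rpl36al, which encodes a protein close to that of Rpl36a, stood at 183, 162 and 157 RPKM in osteoblasts and 85.5, 83.7 and 89.9 RPKM in chondrocytes (log2 difference 0.94, SE 0.11, adjusted p = 0.000225, limma). Its share of the pair with Rpl36a was 33.1% ± 2.60 in osteoblasts and 26.2% ± 3.20 in chondrocytes (SD, n = 3 each, exact permutation p = 0.1, adjusted 0.14). Rps4y2, the symbol left out of the members, stood at 38.7, 40.6 and 40.3 RPKM against 10.8, 16.2 and 12.2 RPKM, and its share of the pair with Rps4x was 4.999% against 2.29%. Rpl3l, the paralog of Rpl3 known from muscle and heart, was at most 0.0288 RPKM in any library, and Rpl10l, known from testis, was at the table's floor of 0.0001 in all 6.

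**Figure D5:**
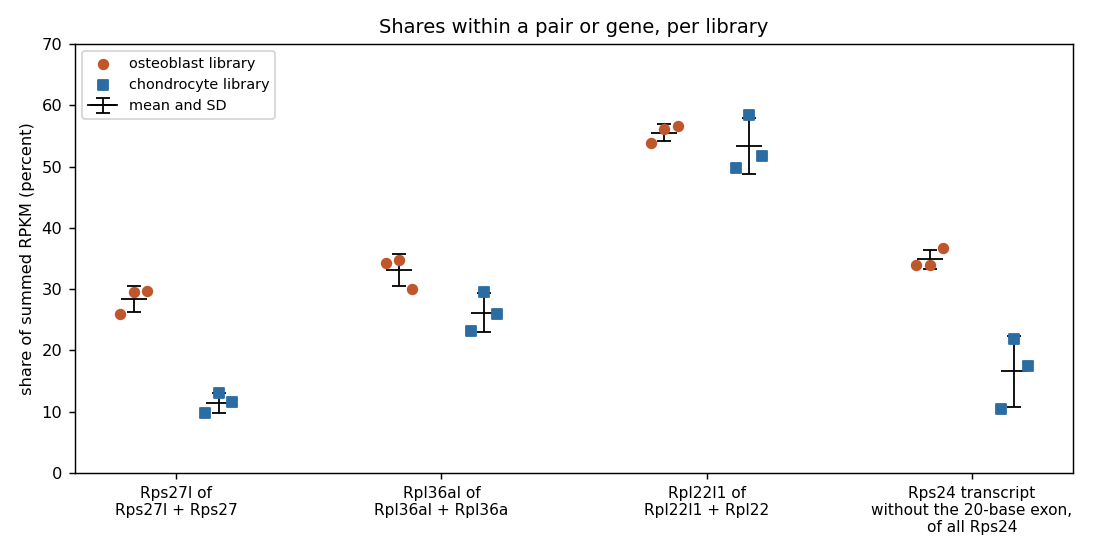
Share of summed RPKM (percent) of a paralog within its pair, and of the Rps24 transcript without the 20-base exon within Rps24, with 1 point per library and bars for the mean and SD of 3 libraries. The osteoblast points lie above the chondrocyte points for Rps27l, Rpl36al and the Rps24 transcript and overlap them for Rpl22l1.

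The remaining members that stood above the rest had ratios of mean RPKM from 1.87 (Rpl30) to 2.03 (Rps19). Rps19, a small subunit protein needed for maturation of its ribosomal RNA and the gene most often mutated in Diamond-Blackfan anaemia, stood at 754, 598 and 706 RPKM in osteoblasts and 375, 290 and 346 RPKM in chondrocytes. Its log2 difference was 1.02 (SE 0.15, adjusted p = 0.000645, limma) and 0.44 relative to the member total (SE 0.11, adjusted p = 0.0118). Rpl8, a large subunit protein near the catalytic centre, stood at 815, 711 and 745 RPKM against 392, 343 and 390 RPKM, with log2 differences of 1.01 as deposited and 0.43 relative to the total (adjusted p = 0.00964). In both genes every osteoblast library was well above every chondrocyte library. Relative to the total, both lost their call when osteoblast replicate 1 was left out (adjusted p = 0.0701 for Rps19 and 0.0598 for Rpl8).

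Rpl41, Rps2 and Rpl36 had log2 differences of similar size. Rpl41, the shortest ribosomal protein, stood at 1178, 1152 and 1135 RPKM in osteoblasts and 582, 574 and 623 RPKM in chondrocytes (log2 difference 0.96). Rps2, at the entry of the messenger RNA channel, stood at 1178, 1101 and 1070 RPKM against 548, 599 and 574 RPKM (log2 difference 0.96). Rpl36 stood at 648, 530 and 552 RPKM against 316, 265 and 314 RPKM (log2 difference 0.95). In each of these genes the groups lay far apart, and relative to the member total the differences were 0.37, 0.37 and 0.36. That relative call was made in 13 of the 16 fits for Rpl41, in 9 for Rps2 (adjusted p = 0.0438 in the fit reported) and in 14 for Rpl36.

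Rpl34 is described together with the row of its pseudogene, because their transcripts are nearly identical. Rpl34 itself was listed at only 15.8, 13.5 and 13.9 RPKM in osteoblasts and 8.03, 5.56 and 8.22 RPKM in chondrocytes, far under most members. The row of its pseudogene Rpl34-ps1 was listed at 596, 559 and 618 RPKM against 483, 390 and 459 RPKM, levels typical of a member. The transcripts are 99.4% identical over the 354 aligned bases and share a run of 185 bases, so reads of the gene and its copy cannot be told apart over much of their length. The log2 difference was 0.91 for Rpl34 (adjusted p = 0.00127, limma) and 0.43 for the sum of both rows. The sum was not tested. The 5 other rows with ribosomal pseudogene symbols had a mean RPKM of at most 2.13. Rpl30, another low member, stood at 27.7, 26.2 and 23.6 RPKM against 16.2, 11.5 and 13.6 RPKM and was called higher in 10 of the 16 fits relative to the total.

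Rps21 and Rpl5 were the other members that lay below the rest. Rps21, a small subunit protein, stood at 629, 549 and 575 RPKM in osteoblasts and 576, 427 and 552 RPKM in chondrocytes, with overlapping groups and a log2 difference of 0.18 (SE 0.15, adjusted p = 0.294). Relative to the member total it was -0.40 (SE 0.11, adjusted p = 0.0158, limma), a call lost without osteoblast replicate 1 (0.0614) or replicate 3 (0.0571). Rpl5 encodes a large subunit protein that carries the 5S ribosomal RNA and, when free, restrains Mdm2. It stood at 282, 273 and 298 RPKM against 268, 201 and 245 RPKM, a log2 difference of 0.26 as deposited (adjusted p = 0.115) and -0.32 relative to the total (adjusted p = 0.0406). Only chondrocyte replicate 1 came near the osteoblast libraries for Rpl5, and the relative call was lost in 5 of the 6 fits that left out a library, with adjusted p from 0.0712 to 0.170.

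The stalk, which recruits elongation factors to the large subunit, is built from Rplp0, Rplp1 and Rplp2. Rplp1 was the most abundant member, at 1528, 1463 and 1546 RPKM in osteoblasts and 901, 716 and 909 RPKM in chondrocytes, and rose by a log2 difference of 0.85 (SE 0.13, adjusted p = 0.00102, limma). Rplp0, the base of the stalk, stood at 1218, 1103 and 1203 RPKM against 1028, 797 and 953 RPKM and missed the threshold (log2 difference 0.35, SE 0.13, adjusted p = 0.0501). Rplp2, the partner of Rplp1, stood at 811, 702 and 673 RPKM against 597, 456 and 552 RPKM, with a log2 difference of 0.45 (adjusted p = 0.0255). That call was lost without osteoblast replicate 1 (adjusted p = 0.106) or replicate 2 (0.0626). The differences between the stalk genes were not tested against each other. Rpsa, a small subunit protein also known as a laminin receptor, rose by a log2 difference of 0.85 (adjusted p = 0.000389), from 344, 321 and 331 RPKM in chondrocytes to 650, 582 and 570 RPKM in osteoblasts.

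Rps12, Rps6 and Rpl10a were also called higher as deposited. Rps12, the third most abundant member, stood at 1321, 1215 and 1233 RPKM against 783, 639 and 805 RPKM (log2 difference 0.77). Rps6, the substrate of the S6 kinases below mTOR, stood at 481, 436 and 450 RPKM against 342, 293 and 313 RPKM (log2 difference 0.53). Rpl10a stood at 490, 476 and 498 RPKM against 289, 284 and 280 RPKM (log2 difference 0.78). All 3 had groups that did not overlap, and none departed from the module in the fit relative to the total.

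Among the uncalled members of highest level were Rps3a1 and Rps14. Rps3a1 stood at 842, 779 and 835 RPKM in osteoblasts and 731, 574 and 680 RPKM in chondrocytes (log2 difference 0.31, adjusted p = 0.0637, limma). Rps14 stood at 840, 729 and 828 RPKM against 725, 526 and 652 RPKM (0.34, adjusted p = 0.0753). In both genes every osteoblast library was above every chondrocyte library even though the test was missed. Of the 18 Diamond-Blackfan anaemia genes among the members, 15 (83.3%) were called higher as deposited, close to the 86.4% of all tested members, and Rpl5 and Rps27 were among those not called. After median-of-ratios scaling only Rps19 of these 18 (5.56%) was called, where 30.4% of all tested genes were higher.

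Rps24 showed a change in its transcripts, a result chosen after the shares of 22 transcripts of 9 tested members with several were seen. Rps24, a small subunit protein, ends in alternative ways through the use of very short exons near its end. The ends of the coding sequence are shown from the last 24 shared bases to the stop, from GENCODE M21 on GRCm38 (chr14:24490756-24495786, plus strand), and capitals mark what follows the shared part. The 20-base exon lies at chr14:24495430-24495449 and the 18-base exon at chr14:24494052-24494069. The transcript with the 18-base exon also holds the 20-base exon, after its stop codon. Here, the transcript with the 20-base exon means the one that lacks the 18-base exon.
Rps24 with the 20-base exon: gccaatgttggtgctggcaaaaagTGA
Rps24 without the 20-base exon: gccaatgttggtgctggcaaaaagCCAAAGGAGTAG
Rps24 with the 18-base exon: gccaatgttggtgctggcaaaaagAAATGA

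The transcript without the 20-base exon made up 33.9%, 33.9% and 36.6% of Rps24 RPKM in osteoblasts and 10.4%, 21.8% and 17.5% in chondrocytes. The transcript with that exon but not the 18-base exon made up 64.1%, 64.1% and 61.8% against 87.2%, 76.5% and 80.9%. The groups did not overlap in either, and each exact permutation test gave p = 0.1, the smallest possible. The transcript without the exon went from 59.99 ± 17.9 RPKM in chondrocytes to 180 ± 19.8 in osteoblasts, while the transcript with it was 300 ± 37.9 against 327 ± 16.5 (SD, n = 3 each). The transcript with the 18-base exon stayed between 1.55% and 2.38% in all libraries. Rps24 as a whole stood at 517, 482 and 552 RPKM in osteoblasts and 382, 338 and 380 RPKM in chondrocytes (log2 difference 0.49, adjusted p = 0.00644, limma). The sources used here do not say how reads were divided between these transcripts. Their lengths in GENCODE M21 differ by more than the short exons. They are 519 bases with the 20-base exon, 1613 without it and 525 with the 18-base exon. The RPKM shares rest on the transcript lengths used. The next largest shift with groups apart was in Rpl35a, where the main transcript held 87.7% in osteoblasts and 91.7% in chondrocytes.

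The promoters and start sites of the members were searched for short motifs, which the choice by symbol did not use. Messenger RNAs of ribosomal proteins begin with a run of pyrimidines, the terminal oligopyrimidine motif, through which mTOR and Larp1 control their translation. In the RefSeq promoter table (GRCm38.p6), 63 members had an entry. A run of at least 6 C or T that began within 10 bases of the annotated start was present in 31 of them (49.2%) and in 26.2% of the 27025 genes of the table. The letters CCGGAAG, a core of ETS factor sites, were found on either strand within the 300 bases of 41.3% of members and 9.93% of genes, and AAGATGG, a core of the YY1 site, in 15.9% and 7.28%. The letters TATAAA were found in 11.1% and 15.7%. The 3 members with the longest pyrimidine runs at the start are shown with the paralog pairs, from 30 bases before the start to 25 after, with the run in capitals. A match is a description of the letters only.
Rpl27a (chr7:109519165-109519219, plus strand): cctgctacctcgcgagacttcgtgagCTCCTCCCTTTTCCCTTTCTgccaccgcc
Rpl35 (chr2:39005107-39005161, minus strand): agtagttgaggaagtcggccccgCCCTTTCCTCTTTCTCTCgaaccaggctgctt
Rpl15 (chr14:18270962-18271016, minus strand): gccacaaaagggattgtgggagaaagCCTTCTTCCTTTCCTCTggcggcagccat
Rpl39 (chrX:37085198-37085252, minus strand): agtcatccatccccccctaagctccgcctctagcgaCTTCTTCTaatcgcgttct
Rpl39l (chr16:10170198-10170252, plus strand): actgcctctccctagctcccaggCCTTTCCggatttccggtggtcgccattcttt
Rps27 (chr3:90213624-90213678, minus strand): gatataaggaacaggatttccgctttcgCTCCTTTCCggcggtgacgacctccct
Rps27l (chr9:66946056-66946110, plus strand): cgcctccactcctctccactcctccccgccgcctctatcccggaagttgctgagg

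The window of Rps27l holds a run of 5 pyrimidines at its start, short of the length counted, and is printed without capitals. Longer pyrimidine runs in this window begin more than 10 bases before the start and so were not counted. The 3 members shown for their long runs had log2 differences of 0.41 for Rpl27a, 0.70 for Rpl35 and 0.50 for Rpl15, all within the bulk of the members.

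Genes that work with the ribosome were counted in the same way, beside 55.5% higher and 13.5% lower of all tested genes as deposited and 30.4% and 30.9% after median-of-ratios scaling. Fau, Gnb2l1 (the ribosome-bound Rack1 protein) and Rpl36al were called higher as deposited, and of these 3 only Rpl36al was called after median-of-ratios scaling. Fau stood at 625, 515 and 564 RPKM in osteoblasts and 368, 307 and 350.2 RPKM in chondrocytes. Of the 35 tested initiation factors 27 were higher and 2 lower as deposited, and 10 higher and 5 lower after scaling. The RNA helicase Eif4a1 stood at 195, 213 and 199 RPKM against 86.1, 88.1 and 93.7 RPKM, whereas its paralog Eif4a2 stood at 48.1, 51.03 and 40.6 RPKM against 89.5, 60.6 and 86.3 RPKM. These paralogs were called in opposite directions (log2 differences of 1.17, adjusted p = 6.15e-05, and -0.73, adjusted p = 0.00685, limma), and both calls held after median-of-ratios scaling.

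Of the 11 tested elongation and release factors 9 were higher and 1 lower, and 4 and 1 after scaling. Eef2k, the kinase that inhibits elongation factor Eef2, had the largest rise (1.49), followed by Eif5a (1.28), and the release factor Etf1 was the 1 that fell (-0.28). Of the 39 tested ribosome assembly factors 27 were higher and 1 lower, and 15 and 10 after scaling. Nhp2, a protein of the particles that modify ribosomal RNA, stood at 28.8, 26.03 and 25.5 RPKM against 7.52, 7.98 and 9.504 RPKM, and Bop1, needed for large subunit maturation, rose by 1.499. Ltv1, needed for small subunit maturation, was the assembly factor called lower, at 15.9, 14.8 and 15.8 RPKM against 29.3, 31.2 and 26.1 RPKM. Of the 13 tested genes of RNA polymerase I, which transcribes ribosomal RNA, 8 were higher and 1 lower, and 5 and 4 after scaling. Polr1e rose by 1.09 on the log2 scale, a direction that is built in because it passed the filter through its osteoblast libraries alone, and Taf1d fell by 0.30.

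Of the 22 tested genes that control translation and growth through mTOR and Myc, 13 were higher and 2 lower, and 8 and 5 after scaling. Mycn, which encodes a Myc family factor that drives ribosomal genes, stood at 4.07, 4.39 and 3.55 RPKM in osteoblasts and 0.298, 0.183 and 0.225 RPKM in chondrocytes, and it too passed the filter through osteoblasts alone. Myc itself, at 25.1, 33.6 and 23.9 RPKM against 50.6, 31.5 and 22.0 RPKM, had overlapping groups and was not called. Mnt, a Myc antagonist, was called lower (log2 difference -0.60), and so was Tsc1, an inhibitor of mTOR (-0.30). Related genes of the list went the other way, with Mxd4 (1.34), Mxi1 (0.40) and Tsc2 (0.61) called higher as deposited. For comparison, 68 of 76 mitochondrial ribosomal protein genes and 35 of 36 tested proteasome genes were called higher as deposited. After median-of-ratios scaling 46 and 30 of them were still higher, where 11 of the 81 cytosolic ribosomal protein genes were. The difference between these lists was not tested.

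Markers of other cells differed between the groups in part. Red cell genes summed to 29.1 to 64.2 RPKM in osteoblasts and 5.45 to 29.1 in chondrocytes, and 4 of the 10 genes were tested, 1 of which was called. Skeletal muscle genes summed to 2.70 to 4.18 RPKM against 11.3 to 43.3, with Tnnt3 the main part in chondrocytes and Ckm at the floor in all libraries. Of the 10 muscle genes 3 were tested, and all 3 were called, 1 of them higher. These 3 passed the filter on low values through 1 cell type alone, which builds in their calls. Myeloid genes summed to 16.2 to 19.99 against 5.53 to 13.1 RPKM (4 of 5 tested called), endothelial genes to at most 4.97 RPKM (none tested) and fibroblast and tendon genes to 1204 to 1923 against 1127 to 3485 RPKM (4 of 6 called). Cd68 of the myeloid list and Dpt of the fibroblast and tendon list passed the filter through osteoblasts alone, which builds in their calls. The part of these other cells in the members' differences was not tested.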

How the data were processed

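RNA-seq of 3 osteoblast and 3 chondrocyte libraries was used. The authors deposited 1 table of RPKM for 31055 RefSeq transcripts with an added 0.0001. Per the submitters' processing notes, TopHat2 2.0.8 and build mm9 were used; the counting program was not given in any source used here. The members and lists were chosen with earlier results of these data known.

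RPKM was summed per symbol, and the 11218 genes that reached 1 RPKM in 3 or more of the 6 libraries were tested with limma 3.58.1 under R 4.3.3 (two-sided, log2(RPKM + 1), variance trend and robust moderation, Benjamini-Hochberg adjustment, threshold 0.05). A second fit divided each library by its summed member RPKM. Shares and sums had exact permutation tests (scipy 1.17.1). Reads behind RPKM were estimated from the steps of low values and GENCODE M21 lengths; 59.0% to 60.7% of these values were whole to within 0.05, where chance gives 10%, and 1 RPKM in a 2 kb transcript stood for 54.0 to 71.8 reads. In simulated data, 67, 67 and 66 of 11218 genes were changed by log2 values of 0.5, 1 and 2. Of these, 31.3%, 74.6% and 93.9% were recovered, and 2.92% of calls were false. Far more genes were called in the real libraries (6224 higher and 1512 lower as deposited), so these rates need not hold there. Sequences were read from GENCODE M21 and the RefSeq promoter table, both GRCm38; no mm9 coordinate is used.

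Named were the 8 members of largest difference and the 4 furthest above and below the member total. The 5 most abundant, the 5 uncalled of highest level, the stalk genes, Rpsa, Rps6, Rpl10a and the paralog pairs were also named. So were up to 2 genes each way of each other list. Rpl30, Rps24, Rpl35a, Trp53, Mdm2, Myc, Mxd4, Mxi1, Tsc2 and the promoter examples were chosen after their values were seen. Some genes that this rule takes are not reported here. Alternatives were pseudocounts, filters, scalings, moderation, a replicate block, library weights, 1 transcript per symbol and each library left out.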

Additional observations from a re-analysis of the deposited data

How the results depend on the processing

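Scaling moved the counts of the fit as deposited. Over the whole table, 6224 genes were higher and 1512 lower as deposited, 3415 and 3470 with median-of-ratios scaling, 3706 and 3184 with upper-quartile scaling, 3597 and 3456 with quantile normalization, 2783 lower without the genes over 1% of a library, and 4092 and 885 with a mean RPKM of at least 5. Ribosomal protein genes called higher numbered 70 as deposited, 11 with median-of-ratios, 17 with upper-quartile, 37 with quantile and 29 without the genes over 1%, and those lower 0, 2, 1, 1 and 1. Of the translation and assembly lists 88 genes were higher and 7 lower as deposited, then 43 and 25, 49 and 24, and 54 and 24 with those first 3 scalings, 18 lower without the genes over 1%, 12 lower with the same RPKM sum or with library weights, and 3 lower with the replicate block. Relative to the member total, 3 members were lower, and 7 with a mean RPKM of at least 5, 8 without trend and 8 with library weights. The log2 difference of the summed member RPKM was 0.59 as deposited, 0.43 with the same RPKM sum, 0.08 with median-of-ratios (exact permutation p = 0.3), 0.13 with upper-quartile (p = 0.2), 0.35 with quantile and 0.23 without the genes over 1%.

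All 81 tested members were positive as deposited. With median-of-ratios scaling 33 were negative, among them Rpl10 (-0.13), Rpl22 (-0.46), Rpl36a (-0.040), Rpl7l1 (-0.031), Rplp2 (-0.058), Rps21 (-0.33) and Rps4x (-0.10). With upper-quartile scaling 19 were negative, among them Rpl10 (-0.074), Rpl22 (-0.40), Rplp2 (-0.0016) and Rps4x (-0.043). Rpl22 was 1 of 5 negative members with quantile normalization (-0.34) and 1 of 10 without the genes over 1% (-0.31). With the same RPKM sum 1 member was negative. The scaling itself makes these shifts.

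With single libraries left out, the members called higher ranged from 56 to 75 with 0 lower, and those relative to their total from 2 to 8 higher and 1 to 4 lower. The whole table gave 5300 to 6319 higher and 1206 to 1898 lower, the translation lists 77 to 90 higher and 3 to 11 lower, and the summed log2 difference 0.51 to 0.65. The paralog shares differed by 16.1 to 18.1 percentage points for Rps27l, 1.85 to 1.94 for Rpl39l, 5.37 to 8.56 for Rpl36al, 2.40 to 3.15 for Rps4y2, 0.42 to 4.74 for Rpl22l1 and -0.21 to 0.018 for Rpl7l1, and that of the Rps24 transcript by 15.2 to 20.9. The libraries share replicate numbers, but same-numbered libraries did not deviate together (correlations of 0.08, 0.01 and -0.16), so the numbers were not taken to pair them. With the replicate number as a block, 72 members were called higher, 7 higher and 2 lower relative to the total, and 5892 genes higher and 1376 lower. The design of 3 against 3 libraries cannot give an exact p under 0.1, and single genes of low RPKM such as Rpl3l rest on at most about 1 read in a library.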
